A study of Mus musculus with 8 samples.

Results

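Endothelial cells, which line blood vessels, are recognized by a small set of surface receptors, junction proteins and stored proteins, and the genes of 10 of these proteins were followed here in macrophages sorted from fat: Kdr, Flt1, Tek, Tie1, Eng, Pecam1, Cdh5, Cldn5, Emcn and Vwf. They were taken from the count table by matching Ensembl identifiers to gene symbols, 10 of 54146 genes, by a rule that used no measured value. The 10 genes had, however, been chosen with earlier results of these data known. Bulk RNA-Seq had been done on macrophages from the epididymal white adipose tissue (eWAT) of 4 C57Bl6 mice, and the question was how macrophages that carry the Fc gamma receptor FCGR4 differ from those that do not. All 4 mice had free access to a high-fat diet for 24 weeks and then received 30% less food over 2 weeks (caloric restriction of short term, stCR). There was therefore no library from an obese mouse without stCR, and the labels name no mutant allele. From each mouse, cells that were CD45+, CD3-, B220-, Ly6G-, SiglecF- and CD11b+ were divided by flow cytometry into an FCGR4+ and an FCGR4- fraction, which gave 4 FCGR4+ and 4 FCGR4- libraries in pairs from the same animals. The gate kept CD45+ CD11b+ cells, which endothelial cells are not, and did not use an endothelial protein.

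Vascular endothelial growth factor (VEGF) acts on endothelial cells through the tyrosine kinase receptor encoded by Kdr (VEGFR2), while the product of Flt1 (VEGFR1) binds VEGF tightly, signals weakly and is also carried by monocytes and macrophages. Angiopoietins act through TIE2, the product of Tek, with TIE1 as its partner, and TIE2 is also known from a subset of monocytes near vessels. Endoglin (Eng) is an accessory receptor for BMP9 and TGF-β that is abundant on endothelial cells and on activated macrophages. VE-cadherin (Cdh5), claudin 5 (Cldn5) and PECAM-1 (Pecam1) hold neighboring endothelial cells together, and PECAM-1 is also present on leukocytes and platelets. Endomucin (Emcn) coats capillaries and veins, and von Willebrand factor (Vwf) is stored by endothelial cells and platelets. Adipose tissue is densely supplied with capillaries, and resident macrophages lie along them.

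Library totals ranged from 35992794 to 66856746 assigned counts, so that 3 counts, the number taken here as the floor of detection, corresponded to 0.0440 to 0.0883 normalized CPM. CPM are the counts of a gene expressed per megaread of its library, after scaling of the library totals with TMM factors of 0.937 to 1.11. The sorted receptor separated the fractions, with Fcgr4 at 139 to 236 normalized CPM in FCGR4+ and 48.5 to 82.9 in FCGR4- libraries. The cells carried the macrophage label in their transcripts: 12 of 12 macrophage markers were tested, and their summed level was 30484 to 54967 normalized CPM in FCGR4+ and 24337 to 48382 in FCGR4- libraries. The 10 endothelial and vascular receptor genes together amounted to 44.5 to 78.0 normalized CPM in FCGR4+ and 51.2 to 61.7 in FCGR4- libraries. Reads of Eng alone made up 40.7% to 76.0% of that sum.

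Compared per length of transcript, as mean normalized CPM per kilobase of exon ± SD over the 8 libraries, Eng was highest at 8.62 ± 2.86 and exceeded Pecam1, at 0.800 ± 0.314, in 8 of 8 libraries. Below Pecam1 the order was loose. Cldn5 followed at 0.507 ± 0.334 and was under Pecam1 in 6 of 8 libraries, then Vwf at 0.408 ± 0.333, Tek at 0.319 ± 0.298, Kdr at 0.288 ± 0.240, Cdh5 at 0.218 ± 0.111 and Flt1 at 0.194 ± 0.0972. Each of these 6 genes stood above the next in only 4 to 6 of 8 libraries, and their ranges overlapped, so that neighbors in this order did not differ beyond their spread. Tie1 at 0.101 ± 0.109 and Emcn at 0.0526 ± 0.0741 were last.

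**Figure D1:**
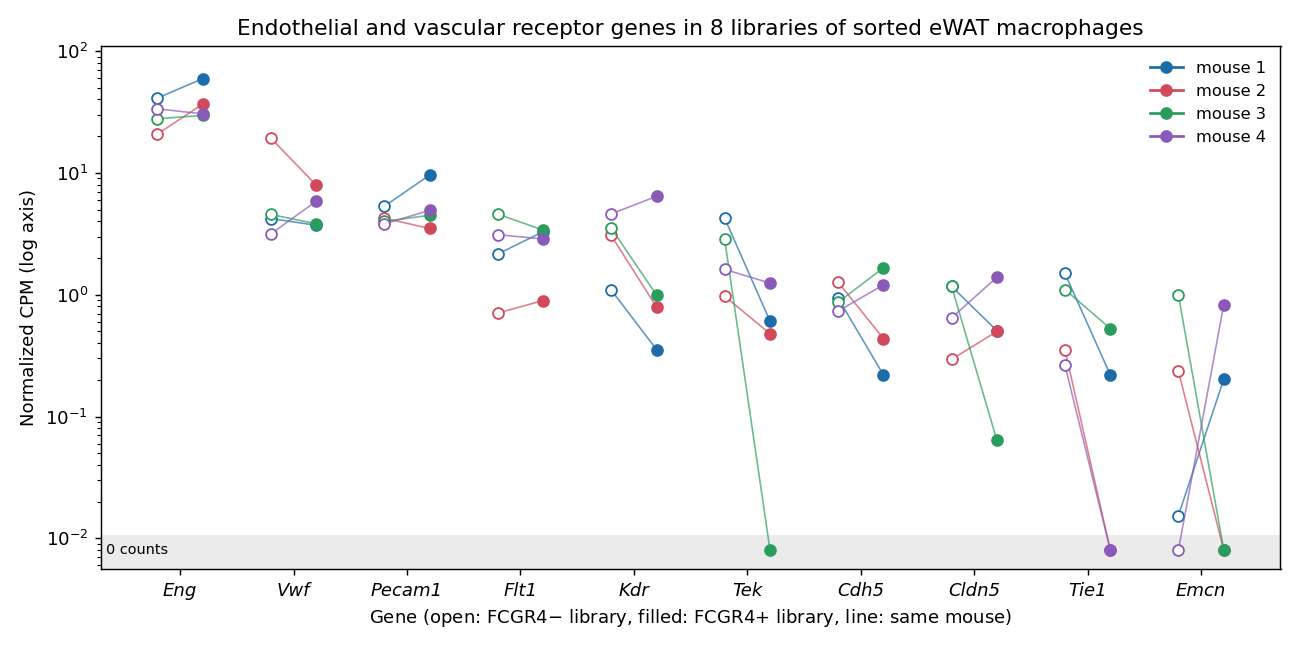
Normalized CPM (log axis) of the 10 genes in each library, with the FCGR4- library as an open and the FCGR4+ library as a filled point, joined by a line within each mouse; points in the grey band had 0 counts. Eng lies between 20.8 and 59.3 in all 8 libraries, most other genes lie between 0.1 and 10, and Tek, Tie1 and Emcn reach 0 in 1, 2 and 3 libraries.

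The VEGF receptors were read at low levels in both fractions. Kdr (ENSMUSG00000062960), at chr5:75932827-75978458 on the minus strand of mm10, had 21, 38, 62 and 309 counts in the FCGR4+ libraries of mice 1 to 4 and 71, 104, 195 and 314 in the matching FCGR4- libraries. In normalized CPM these were 0.354, 0.790, 0.990 and 6.41 against 1.09, 3.06, 3.52 and 4.60. The FCGR4+ library was lower in mice 1, 2 and 3 and higher in mouse 4, where it held the highest value of all 8, so the fractions overlapped. The fitted log2 fold change (FCGR4+ over FCGR4-) was -1.24 (SE 0.49, 95% interval -2.38 to -0.09), with an unadjusted P of 0.0379 and an adjusted P of 0.479 in edgeR's quasi-likelihood test paired by mouse. Without mouse 4 the fold change was -1.80 with an adjusted P of 0.283.

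Flt1 (ENSMUSG00000029648; chr5:147561604-147726011, minus strand) was at 3.29, 0.894, 3.39 and 2.86 normalized CPM in FCGR4+ and 2.15, 0.706, 4.59 and 3.11 in FCGR4- libraries. Mouse 2 was the lowest of the 4 animals in both fractions. The fold change was 0.09 (SE 0.31, interval -0.64 to 0.82), with an adjusted P of 0.930 in the same edgeR test. Flt1 was higher in the FCGR4+ library of mice 1 and 2 and lower in that of mice 3 and 4, whose animal identifiers begin with a different prefix, and the fit gave -0.30 in mice 3 and 4 alone.

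The angiopoietin receptors were the members with the most negative fitted values. Tek (ENSMUSG00000006386; chr4:94739289-94874976, plus strand) had 36, 23, 0 and 60 counts in FCGR4+ libraries against 276, 33, 158 and 110 in FCGR4- libraries, or 0.607, 0.478, 0 and 1.25 against 4.25, 0.971, 2.85 and 1.61 normalized CPM. All 4 FCGR4+ libraries were below the FCGR4- library of the same mouse, although the FCGR4+ library of mouse 4 was above the FCGR4- library of mouse 2. The fold change was -2.37 (SE 1.16, interval -5.11 to 0.37), with an unadjusted P of 0.0805 and an adjusted P of 0.557 in edgeR's test. Mouse 3, with 0 counts on the FCGR4+ side, moved this value, which was -1.40 without it.

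Tie1 (ENSMUSG00000033191; chr4:118471191-118490061, minus strand) had 13, 0, 33 and 0 counts in FCGR4+ libraries and 97, 12, 61 and 18 in FCGR4- libraries. These were 0.219, 0, 0.527 and 0 normalized CPM against 1.49, 0.353, 1.10 and 0.264. Tie1 too was lower in the FCGR4+ library of 4 of 4 mice with overlapping fractions, since mouse 3's FCGR4+ library exceeded the FCGR4- libraries of mice 2 and 4. The fold change was -3.11 (SE 1.03, interval -5.54 to -0.67), with an unadjusted P of 0.0193 and an adjusted P of 0.362 in edgeR's test. The call for Tie1 depended on the tool and the filter, with an adjusted P of 0.0361 in DESeq2 and 0.0803 in edgeR without a filter on low counts, where Tek reached 0.0736. These settings also called more genes in all, 5.99% of those tested in DESeq2 and 2.77% without the filter.

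Eng (ENSMUSG00000026814; chr2:32646595-32682669, plus strand) was the most deeply read member, with 707 to 3520 counts per library, and its levels were 59.3, 36.7, 29.6 and 30.5 normalized CPM in FCGR4+ and 41.0, 20.8, 27.8 and 33.5 in FCGR4- libraries. Mouse 1 was the highest animal in both fractions, the FCGR4+ library was the higher in mice 1, 2 and 3, and the fractions overlapped. Its fold change was the most tightly estimated, 0.32 (SE 0.19, interval -0.12 to 0.77), with an adjusted P of 0.600 in edgeR's test. Of its exonic bases, 1.51% are shared with the neighboring gene Fpgs, and the counting did not use strand.

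Among the junction and adhesion genes, Pecam1 (ENSMUSG00000020717; chr11:106654217-106750628, minus strand) was at 9.59, 3.49, 4.49 and 4.92 normalized CPM in FCGR4+ and 5.31, 4.24, 3.99 and 3.81 in FCGR4- libraries. Apart from the FCGR4+ library of mouse 1, the libraries lay within 3.49 to 5.31, and the fold change was 0.28 (SE 0.25, interval -0.31 to 0.88; edgeR adjusted P = 0.711). Cdh5 (ENSMUSG00000031871; chr8:104101625-104144511, plus strand), whose product is the defining junction protein of endothelium, had 13 to 104 counts in every library. It was at 0.219, 0.437, 1.66 and 1.20 normalized CPM in FCGR4+ and 0.939, 1.27, 0.867 and 0.733 in FCGR4- libraries. The FCGR4+ library was lower in mice 1 and 2 and higher in mice 3 and 4, and the fold change of -0.45 (SE 0.70, interval -2.09 to 1.19; edgeR adjusted P = 0.830) became 0.09 without mouse 1. Cldn5 (ENSMUSG00000041378; chr16:18776847-18778262, plus strand) was at 0.506, 0.499, 0.0639 and 1.39 against 1.17, 0.294, 1.17 and 0.645 normalized CPM, lower in the FCGR4+ library of mice 1 and 3 and higher in that of mice 2 and 4. Its fold change was -0.68 (SE 0.98, interval -2.99 to 1.64; edgeR adjusted P = 0.819).

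Vwf (ENSMUSG00000001930; chr6:125546774-125686679, plus strand) was at 3.71, 7.92, 3.82 and 5.85 normalized CPM in FCGR4+ and 4.22, 19.2, 4.55 and 3.15 in FCGR4- libraries. The FCGR4- library of mouse 2 stood above the other 7, and the other libraries of both fractions lay within 3.15 to 7.92. The fold change was -0.21 (SE 0.35, interval -1.03 to 0.61; edgeR adjusted P = 0.840) and changed sign, to 0.14, without mouse 2. Emcn (ENSMUSG00000054690; chr3:137341067-137432185, plus strand) had 12, 0, 0 and 40 counts in FCGR4+ and 1, 8, 55 and 0 in FCGR4- libraries. It reached 10 counts in 3 libraries and was not tested, and no difference between fractions could be detected at this depth.

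The promoters of the receptors show that their upstream sequences differ in composition. The 250 bases before the RefSeq start are given for Eng, the member with by far the highest level, and for the receptors Kdr and Tek, which were read at a small part of that level in the same libraries. Capitals mark AGGAAG or its reverse complement CTTCCT, the core letters of many sites of ETS factors, the family that acts in endothelial and in myeloid cells.
Eng: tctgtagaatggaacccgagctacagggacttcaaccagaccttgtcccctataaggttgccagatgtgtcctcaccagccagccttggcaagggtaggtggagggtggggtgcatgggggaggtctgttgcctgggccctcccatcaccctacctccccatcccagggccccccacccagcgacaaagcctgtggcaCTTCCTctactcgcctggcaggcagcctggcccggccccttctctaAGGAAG
Kdr: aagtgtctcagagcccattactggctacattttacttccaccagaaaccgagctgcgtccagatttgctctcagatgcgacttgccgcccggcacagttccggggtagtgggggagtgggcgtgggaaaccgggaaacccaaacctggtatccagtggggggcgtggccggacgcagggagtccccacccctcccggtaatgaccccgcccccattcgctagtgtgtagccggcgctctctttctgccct
Tek: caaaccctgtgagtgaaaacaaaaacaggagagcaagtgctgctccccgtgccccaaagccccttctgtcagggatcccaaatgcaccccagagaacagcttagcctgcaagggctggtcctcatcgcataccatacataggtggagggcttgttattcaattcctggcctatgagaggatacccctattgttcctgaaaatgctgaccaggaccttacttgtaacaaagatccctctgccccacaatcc
They lie at chr2:32646345-32646594 (plus strand), chr5:75978456-75978705 (minus strand) and chr4:94739039-94739288 (plus strand) of RefSeq's GRCm38.p6, and 7 of the 10 genes had an entry (Eng, Emcn, Tek, Tie1, Kdr, Flt1 and Cldn5). The Eng window held 2 matches to AGGAAG on either strand and the Kdr and Tek windows 0. The windows of Emcn, the member with the lowest level per length, and of Flt1 also held 2, and that of Tie1 held 1. The letters were present in 4 of the 7 windows and in 29.5% of all 32851 promoter windows of the same length. Other forms of ETS sites were not searched, so a window with 0 matches may still hold such a site. The GC box letters GGGCGG, also searched on both strands, had 2 matches in Kdr and 0 in Eng and Tek, and were in 3 of 7 windows and 32.7% of all. TATAAA was found in 1 of 7, that of Flt1, and in 12.4% of all. Kdr's window held 16 CG pairs and 61.6% G or C, Eng's 4 and 62.4%, and Tek's 2 and 51.2%, where the median over all promoters was 6 and 52.4%.

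Between fractions, 0 of the 9 tested genes passed the threshold (adjusted P under 0.1 in edgeR's quasi-likelihood test), where 1.27% of all genes tested did, 217 of 17095. Of those 217 genes, 203 were lower (1.19% of genes tested) and 14 higher (0.0819%) in FCGR4+ macrophages. An unadjusted P under 0.05 was found for 2 of the 9, Kdr and Tie1, against 9.77% of all genes, and DESeq2 called 1 of the 9, Tie1, where it called 1024 of 17095 genes (5.99%). The fold changes lay below 0 for 6 of 9 and above 0 for Eng, Pecam1 and Flt1, with a median of -0.45 beside -0.00254 over all genes tested. In 2 of the 9, Tek and Tie1, all 4 mice had the same direction, which 18.8% of tested genes had. The fractions overlapped for each of the 10 genes, where 3.91% of tested genes did not overlap.

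The members differed in how much they varied between pairs. The biological coefficient of variation that edgeR estimated for the difference within pairs was 0.202 for Eng, 0.284 for Pecam1, 0.347 for Flt1 and 0.352 for Vwf. It was 0.476 for Kdr, 0.646 for Cdh5, 0.810 for Cldn5, 0.812 for Tie1 and 0.928 for Tek, beside a median of 0.268 over tested genes. The intervals of Cldn5, Tie1 and Tek therefore each spanned more than 4 log2 units, and a P above the threshold did not show equal levels. In bulk libraries, fewer cells that carry a transcript and less of it per cell cannot be told apart.

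**Figure D2:**
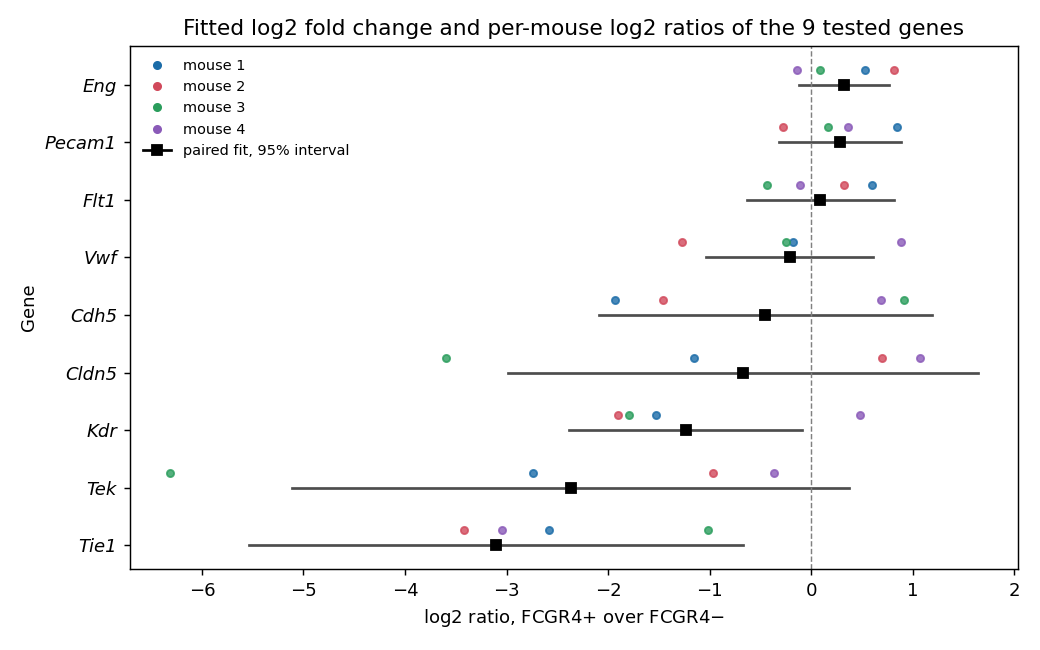
Log2 ratio of FCGR4+ over FCGR4- for the 9 tested genes, as the paired edgeR estimate with its 95% interval (square and line) and as the ratio within each mouse with a prior count of 2 (points). The intervals of Kdr and Tie1 lie below 0, those of the other 7 include 0, and none of the 9 passed the adjusted threshold.

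The genes did not keep a fixed proportion to each other across libraries. For 1 count of Cdh5 there were between 0.596 and 6.28 counts of Kdr (normalized levels), between 0 and 4.52 of Tek, and between 16.4 and 271 of Eng. The ratio of Kdr to Cdh5 was lower in the FCGR4+ library of 3 of 4 mice and its ranges overlapped, at 0.596 to 5.33 in FCGR4+ and 1.16 to 6.28 in FCGR4- libraries. With Eng, Pecam1, Vwf, Flt1 and Tek, the genes that macrophages, monocytes or platelets are also known to use, set aside, the summed level of the other 5 was 1.501 to 9.84 normalized CPM in FCGR4+ and 4.71 to 7.66 in FCGR4- libraries, lower in the FCGR4+ library of 3 of 4 mice.

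The other genes of these pathways and of vessels were grouped in 9 lists with 110 genes, of which 89 were tested. Of these, 2 were lower and 0 higher in FCGR4+ macrophages past the threshold, 2.25% beside 1.27% of all genes, and 58 of 89 fold changes lay below 0 with a median of -0.32. At an unadjusted P under 0.05 there were 22 of the 89, 18 lower and 4 higher (Tgfbr1, Cgnl1, Fabp4 and Cd36), or 24.7% beside 9.77% of all genes in either direction. DESeq2 called 13 of the 89, 12 lower and 1 higher, where it called 5.99% of all genes. Without a filter on low counts, when 108 of the listed genes were tested, edgeR called 12, where it called 2.77% of all genes. The fractions did not overlap for 6 of the 89, all lower in FCGR4+, or 6.74% beside 3.91% of all genes tested.

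Of the VEGF ligands and coreceptors, 0 of 8 passed the threshold and 3 had an unadjusted P under 0.05. The coreceptors Nrp1 and Nrp2, neuropilins that macrophages also carry, had the most reads of the list, with Nrp1 at 171 to 270 normalized CPM in FCGR4+ and 172 to 186 in FCGR4- libraries (log2 fold change 0.28, adjusted P = 0.595 in edgeR's test). Vegfa, the main ligand of KDR, was at 5.70, 34.6, 36.6 and 12.8 normalized CPM in FCGR4+ and 5.99, 66.3, 128 and 28.9 in FCGR4- libraries. It was lower in the FCGR4+ library of 4 of 4 mice, with a difference that was small in mouse 1, and its log2 fold change was -1.01 (SE 0.27, edgeR adjusted P = 0.224). It passed the threshold in DESeq2, without a filter on low counts and with edgeR's newer method. Nrp2 was at 35.0 to 79.3 in FCGR4+ and 49.7 to 106 in FCGR4- libraries (log2 fold change -0.32, edgeR adjusted P = 0.549).

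Of the angiopoietin list, 3 of 4 genes were tested and 0 passed. Angpt2, the ligand of TIE2 that vessels release when they are remodeled, was at 12.5, 4.70, 1.01 and 8.34 normalized CPM in FCGR4+ and 13.5, 3.15, 1.90 and 3.78 in FCGR4- libraries, and its log2 fold change was 0.20 (SE 0.35, edgeR adjusted P = 0.855). Angpt1, the activating ligand, was listed at 0, 0, 0 and 0.0623 normalized CPM in FCGR4+ libraries, none above the floor, and at 1.26, 0.647, 0.253 and 0.630 in FCGR4- libraries. Its fractions did not overlap, and its log2 fold change was -5.71 (SE 1.18, interval -8.49 to -2.93), which depends on the prior count where a fraction is near 0, with an adjusted P of 0.120 in edgeR's test. It passed the threshold with library size alone, in DESeq2, without a filter on low counts and with edgeR's newer method.

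Receptors that work with endoglin were on both sides of its own mean level of 8.62 normalized CPM per kilobase over 8 libraries, with 16.6 for Acvrl1, 14.1 for Tgfbr1 and 19.0 for Tgfbr2 but 0.614 for Bmpr2 and 0.802 for Tgfbr3. Of the endoglin list 15 of 19 were tested, 0 passed, and the median log2 fold change was -0.05. Acvrl1, the ALK1 receptor with which endoglin pairs, was at 59.3 to 81.6 normalized CPM in FCGR4+ and 50.1 to 80.0 in FCGR4- libraries (log2 fold change 0.03, SE 0.14, edgeR adjusted P = 0.952). Tgfbr2, the TGF-β type II receptor, was at 119 to 206 and 144 to 166 (log2 fold change 0.01, edgeR adjusted P = 0.981). Id2, a target gene of BMP signals that leukocytes also express, was at 228 to 454 and 171 to 512 (log2 fold change -0.05, edgeR adjusted P = 0.947). Id1 of the same list was at 0.219 to 3.53 and 1.15 to 5.76 normalized CPM. It was lower in the FCGR4+ library of 4 of 4 mice, with overlapping fractions. Its log2 fold change was -1.26 (SE 0.42, edgeR adjusted P = 0.358), while that of Id3 was 0.03 (edgeR adjusted P = 0.949). Of the 15 tested fold changes of the list, 7 lay above 0 and 8 below. Gdf2, which encodes the ligand BMP9, had 0 counts in 8 of 8 libraries, which at the floor allows a level of up to 0.0883 normalized CPM.

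Notch genes of vessels gave 0 calls among 6 tested of 9, with the most reads on Jag1 and Notch1, and endothelial junction genes gave 0 among 13 tested of 14, led by Ctnnb1 and Jup, which encode catenins that many cell types use. Jag1 was at 11.1 to 22.1 normalized CPM in FCGR4+ and 14.7 to 26.6 in FCGR4- libraries (log2 fold change -0.48, edgeR adjusted P = 0.514). Of 17 transcription factors known from endothelium, 14 were tested, and their median log2 fold change was 0.19. Klf2 and Lmo2, also expressed by myeloid cells, had the most reads, with Lmo2 at 74.0 to 91.8 and 62.4 to 85.0 normalized CPM (log2 fold change 0.17, edgeR adjusted P = 0.678). Gata2 fell in FCGR4+ macrophages, at 0.438, 0.125, 0 and 0 against 9.83, 7.27, 2.26 and 3.57 normalized CPM (log2 fold change -5.98, SE 0.77, edgeR adjusted P = 0.0306). GATA2 acts in endothelial cells and is also a defining factor of mast cells. The call for Gata2 was lost without mouse 2 (edgeR adjusted P = 0.117). Ets1 was at 5.12 to 6.64 normalized CPM in FCGR4+ and 8.53 to 23.1 in FCGR4- libraries, without overlap. Its log2 fold change was -1.08 (SE 0.24, edgeR adjusted P = 0.145). Ets1 passed the threshold in DESeq2, without a filter on low counts, with 10 counts required in every library and with edgeR's newer method. Of the 14 tested factors, 9 had fold changes above 0.

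Other endothelial markers numbered 25, of which 18 were tested. None passed the threshold, 4 had an unadjusted P under 0.05, and 15 of 18 fold changes lay below 0 with a median of -1.07. Their genes with the most reads were Calcrl, at 21.2 to 35.5 normalized CPM in FCGR4+ and 11.7 to 36.8 in FCGR4- libraries, and Nostrin, at 12.2 to 21.3 and 10.3 to 21.6, and these had fold changes above 0 (0.34 and 0.36 on the log2 scale, edgeR adjusted P = 0.612 and 0.597). The 4 with an unadjusted P under 0.05 in edgeR's test were Ramp2, Gpihbp1, Egfl7 and Tm4sf1, each with a fold change below 0. Ramp2 was at 0.0479 to 0.472 and 1.15 to 2.74 normalized CPM, without overlap (log2 fold change -2.70, SE 0.62, edgeR adjusted P = 0.165). It passed the threshold in DESeq2, without a filter on low counts and with edgeR's newer method. Gpihbp1 did not overlap either (log2 fold change -1.16, edgeR adjusted P = 0.397). The summed level of the list overlapped between fractions, at 39.7 to 72.0 and 40.3 to 84.8 normalized CPM. Calcrl and Nostrin, at means of 24.0 and 16.6 over all libraries, carried much of this sum, so its overlap does not describe the other genes of the list.

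Among genes of capillaries that other cells of fat also use, 8 of 8 were tested and Cd34 fell. Cd34, a sialomucin of capillary endothelium, stromal progenitors and mast cells, was at 3.07, 3.16, 4.52 and 4.88 normalized CPM in FCGR4+ and 32.0, 8.98, 20.8 and 11.8 in FCGR4- libraries, without overlap (log2 fold change -2.08, SE 0.36, edgeR adjusted P = 0.0699). The call for Cd34 was lost with any of the 4 mice left out, at adjusted P of 0.109 to 0.149 in edgeR's test. Cd36, the fatty acid transporter of capillaries and macrophages, was at 2084 to 5896 and 1351 to 5245 (log2 fold change 0.41, edgeR adjusted P = 0.488), and Ly6a, a surface protein of capillaries, stroma and leukocytes, was at 15.4 to 355 and 22.6 to 155 (log2 fold change 0.15, edgeR adjusted P = 0.880). Lymphatic endothelial genes gave 0 calls among 4 tested of 6, and Pdpn and Lyve1, with the most reads, are also made by macrophages. At an unadjusted P under 0.05 in edgeR's test there were 6 of the 8 capillary genes, 4 lower and 2 higher (Cd36 and Fabp4). There were also 1 of 3 angiopoietin, 3 of 15 endoglin, 0 of 6 Notch, 2 of 13 junction, 2 of 14 transcription factor and 1 of 4 lymphatic endothelial genes.

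Markers of other cells differed from list to list in how many passed the threshold. The 10 mast cell and basophil markers summed to 14.5 to 30.5 normalized CPM in FCGR4+ and 392 to 2162 in FCGR4- libraries, and 9 of 9 tested fell (Cpa3, Cma1, Mcpt4, Tpsb2, Tpsab1, Ms4a2, Fcer1a, Hdc and Kit), Kit at 0.0160 to 1.37 against 5.93 to 40.0. Fibroblast markers summed to 657 to 750 and 924 to 2378, and 6 of 10 fell (Pdgfra, Lum, Col1a2, Col3a1, Pi16 and Dpp4), a count of 0 to 5 with a mouse left out and lowest without mouse 1. Mural cell markers, of the pericytes and smooth muscle that wrap vessels, summed to 5.78 to 10.99 and 12.2 to 26.9, lower in 4 of 4 mice, and 1 of 10 tested, Pdgfrb, fell (log2 fold change -2.32, edgeR adjusted P = 0.0366), a call lost without mouse 1 or mouse 4. Of 7 tested platelet and megakaryocyte markers 1 fell, Itga2b, which mast cells also express (log2 fold change -4.70, edgeR adjusted P = 0.0396; not past the threshold without mouse 1 or mouse 2), while Pf4 ranged from 232 to 1533 in FCGR4+ and 194 to 523 in FCGR4- libraries. Dendritic cell markers (3 of 6 fell: Flt3, Ccr7 and Cd209a) summed to 37.9 to 89.7 and 98.0 to 190 normalized CPM, and neutrophil markers (2 of 4, S100a8 and S100a9) to 104 to 505 and 299 to 2225. Of mesothelial markers 1 of 7 fell (Msln), of macrophage markers 1 of 12 (Cd163) and of adipocyte markers 0 of 6, and 1 of 6 nonclassical monocyte markers rose (Cd300e). The call for Cd163 was lost with any mouse left out, and that for Cd300e without mouse 1, 2 or 4. Of the 12 macrophage markers 9 had fold changes above 0 (median 0.49 on the log2 scale, 7 higher and 1 lower at an unadjusted P under 0.05 in edgeR's test), and their sum was higher in the FCGR4+ library of 4 of 4 mice. Of the 6 nonclassical monocyte markers 5 had fold changes below 0 (median -0.34), and their sum was higher in the FCGR4+ library of 1 of 4 mice. Gata2, Cd34 and Itga2b are all used by mast cells, and Vwf by platelets, and the part of these cells in the values given here was not tested. The 12 platelet and megakaryocyte markers summed to 236 to 1632 in FCGR4+ and 206 to 604 in FCGR4- libraries, most of it Pf4.

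**Figure D3:**
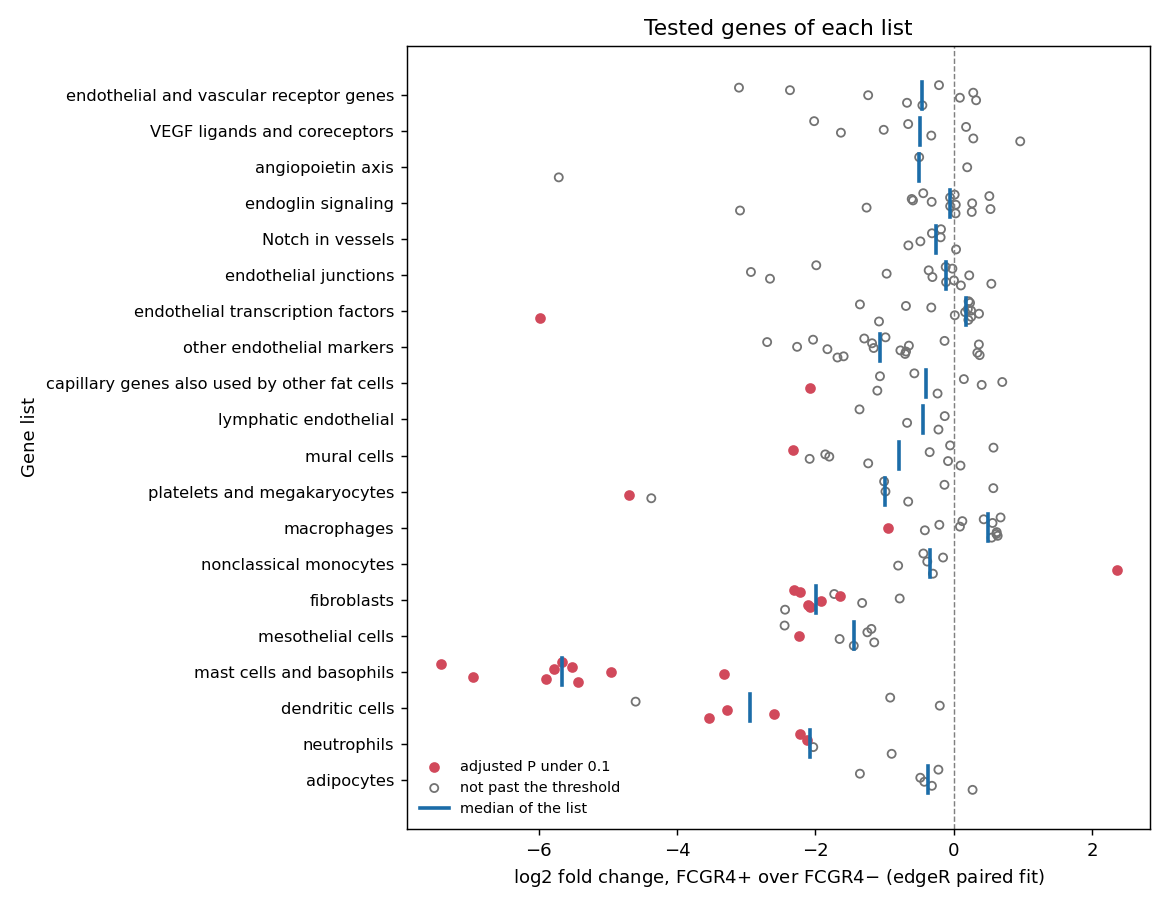
Log2 fold change (FCGR4+ over FCGR4-, paired edgeR fit) of every tested gene in the lists shown, with filled points past an adjusted P of 0.1, open points not past it, and a vertical bar at the list's median. None of the 9 tested endothelial and vascular receptor genes is filled, the 2 filled points in the 9 vascular lists are Gata2 and Cd34, and 9 of 9 tested mast cell and basophil genes are filled and below 0.

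The mice fell into a pair of identifier prefixes, mice 1 and 2 and mice 3 and 4, and what the prefixes stand for is not given in the sources used here. In mice 1 and 2 alone the fold change was -1.79 for Kdr, -1.96 for Tek and -3.53 for Tie1, and in mice 3 and 4 alone it was -0.67, -3.40 and -2.55. The fitted values of these 3 genes were below 0 within each prefix, although Kdr was lower in the FCGR4+ library of mouse 3 and higher in that of mouse 4. Cdh5 was at 0.80, Flt1 at -0.30, Eng at -0.05 and Vwf at 0.30 in mice 3 and 4, opposite in sign to the estimate from all mice. None of the tested members passed the threshold within either prefix.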

How the data were processed

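RNA was extracted from cells sorted into TRIzol, and the libraries were sequenced and processed by the authors. Per the methods and the file headers, reads were mapped to mm10 with STAR, and the authors deposited raw counts per gene from featureCounts 1.6.3 (read pairs, multimapping reads included, strand not used) on GENCODE mouse release 18. No per-sample column was left out (0). The 10 genes and all gene lists were chosen with earlier results of these data known. The named genes were the 10 genes, the genes of each list past the threshold, the pair of each list with the highest mean CPM, and Fcgr4; nearest genes were to be named for members past the threshold, of which there were none. In the marker lists of other cells, pairs with the highest CPM that did not pass the threshold are mostly covered by the lists' sums alone. Vegfa, Angpt1, Acvrl1, Tgfbr1, Bmpr2, Tgfbr3, Gdf2, Cgnl1, Fabp4, Id1, Id3, Ets1, Ramp2, Gpihbp1, Egfl7 and Tm4sf1 were added after their values were seen.

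The 17095 genes that reached 10 counts in 4 or more libraries, which held 99.8% or more of the counts, were TMM-scaled and fitted with edgeR 4.0.16 (glmQLFit and glmQLFTest, R 4.3.3) with mouse as a block, and P-values were Benjamini-Hochberg adjusted over all of them, with a threshold of 0.1. The block was kept because both fractions came from the same animals: the correlation of deviations from the fraction means was 0.291 to 0.428 within mice and had a median of -0.0615 between mice. Reads without molecular identifiers are not independent molecules, and floors cover counting error only. DESeq2 1.42.0, other scalings, filters and subsets of mice were alternatives. The edgeR fit was tested on simulated data. Library totals ranged from 35992794 to 66856746 counts. Symbols were matched for 54079 of 54146 identifiers, and promoter sequences were RefSeq's. Markers of T and B cells are not reported here.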

Additional observations from a re-analysis of the deposited data

Results flagged for a closer look

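In 30 groups of 4 values (each gene's level in FCGR4+ libraries, in FCGR4- libraries, and its per-mouse log2 ratio), 3 held a sample far from the others by Dixon's criterion, which chance gives in about 1 of 20 groups, or 1.5 of 30. The groups are not independent, since each ratio is computed from the levels, and both flags of Kdr rest on the same FCGR4+ library. Kdr in the FCGR4+ library of mouse 4 was at 6.41 normalized CPM, where the other 3 lay between 0.354 and 0.990, and the gap took 0.895 of the range. The per-mouse log2 ratio of Kdr in mouse 4 was 0.48, where the other mice lay between -1.91 and -1.53, with a gap of 0.843 of the range. Vwf in the FCGR4- library of mouse 2 was at 19.2 normalized CPM, where the other 3 lay between 3.15 and 4.55, with a gap of 0.913 of the range.

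The ratio of FCGR4+ to FCGR4- took opposite directions in mice 1 and 2 and in mice 3 and 4, which carry different identifier prefixes, for Cdh5 and Flt1. The mean log2 ratio of Cdh5 was -1.70 in mice 1 and 2 and 0.80 in mice 3 and 4, a difference of -2.50. That of Flt1 was 0.46 and -0.27, a difference of 0.738. These differences were not tested.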

How the results depend on the processing

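No member passed the threshold at an adjusted P of 0.05, without the replicate block, with RLE size factors or library size alone, with 10 counts required in 2 libraries, in either pair of mice, in any leave-one-out fit (0 to 0), or with edgeR's newer quasi-likelihood method, an alternative added after the data were seen. With 10 counts required in every library, Tek, Tie1 and Cldn5 were not tested and 0 of the other 6 passed. DESeq2 called 1 (Tie1), and edgeR without a filter on low counts, which tested 38021 genes and 108 of the listed ones, called 2 (Tek and Tie1). Over all genes the 217 calls became 76 at a threshold of 0.05, 48 without the replicate block, 1024 in DESeq2, 1054 without a filter, 629 with the newer method, 113 in mice 1 and 2, 113 in mice 3 and 4, and 84 to 163 with a mouse left out. Calls that were lower in FCGR4+ made up 93.5% of the 217, 81.2% in DESeq2 and 74.3% in mice 3 and 4. The 2 calls among the listed vascular genes became 1 at 0.05, 0 without the block, 13 in DESeq2, 12 without a filter, 9 with the newer method, 1 in mice 1 and 2, 0 in mice 3 and 4, and 0 (without mouse 2) to 1 with a mouse left out. The loss of the block changed the direction of Flt1 alone among the members. Of 123 alternative fold changes of single members 110 kept direction and side of the threshold. Reversed were Cdh5 (0.093 without mouse 1, 0.80 in mice 3 and 4), Flt1 (-0.019 without the block, -0.0027 with library size alone, -0.089 without mouse 1, -0.30 in mice 3 and 4), Eng (-0.047 in mice 3 and 4), Vwf (0.14 without mouse 2, 0.30 in mice 3 and 4) and Cldn5 (0.21 without mouse 3). With a mouse left out, Cdh5 ranged from -0.98 to 0.093, Flt1 from -0.089 to 0.26, Vwf from -0.57 to 0.14 and Cldn5 from -1.43 to 0.21. The causes were not tested. Library size alone moved the median of all genes to -0.0919. Genes under about 1 normalized CPM rested on few reads, which limits what these libraries can show.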
